A study of Mus musculus with 12 samples.

Results

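The 8 genes described here encode transcription factors that act across the endothelium, the cell layer that lines blood vessels. They are Erg, Fli1, Ets1, Ets2, Etv6 and Elk3 of the ETS family, the basic helix-loop-helix factor Tal1 and the zinc-finger factor Gata2. The genes were found by symbol in a table of 21638 genes, where each has 1 row. All 8 passed the filter on low counts, a mean of at least 10 counts over the libraries, as did 12577 genes in all. RNA came from cortical endothelium of adult mouse brain. Cells carrying CD31 and lacking both CD41 and CD45 were collected by flow cytometry, and the 12 libraries formed 4 groups of 3. One group was WT. Hdac2 ECKO cells came from Hdac2lox/lox:Cdh5CreERT2 mice, in which a tamoxifen-inducible Cre under the Cdh5 promoter, itself an endothelial promoter, is meant to delete the histone deacetylase gene Hdac2. Ezh2 ECKO cells came from Ezh2lox/lox:Cdh5CreERT2 mice and target the Polycomb methyltransferase gene Ezh2. Beta-catenin GOF cells came from Ctnnb1lox/lox:Cdh5CreERT2 mice, described as carrying constitutively active beta-catenin. The mutants received 5 doses of tamoxifen at 75 mg/kg, and brains were taken 2 months later. The labels do not say whether WT mice carried Cre or received tamoxifen, nor whether the 3 libraries of a group came from separate animals, so p-values measure the spread between these libraries, which may be technical.

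ETS factors share a DNA-binding domain that reads a GGAA core, and most endothelial enhancers and promoters carry such cores. Erg and Fli1 are close relatives that keep junction, adhesion and anticoagulant genes on in mature endothelium, while Etv6 and Elk3 act mainly as repressors. Tal1 binds E-box DNA as a dimer with an E protein (Tcf3, Tcf4 or Tcf12), and the bridging proteins Lmo2 and Ldb1 join it to a GATA factor, which in endothelium is mostly Gata2. Together the ETS, GATA and Tal1 factors are known for specifying blood and endothelial cells in the embryo and for holding endothelial identity in the adult.

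The promoters of 3 of the genes are shown because Erg was the one factor whose transcript passed the test, Tal1 had the highest Pearson correlation with Erg, and Etv6 held the most ETS cores. The sequences are RefSeq windows on GRCm38.p6, from 250 bases before to 50 bases after the start site nearest the 5′ end of the gene in the table, printed 5′ to 3′ on the strand of the gene, with each GGAA core (or TTCC, the same core on the other strand) in capitals.
Erg, chr16:95586544-95586843, minus strand: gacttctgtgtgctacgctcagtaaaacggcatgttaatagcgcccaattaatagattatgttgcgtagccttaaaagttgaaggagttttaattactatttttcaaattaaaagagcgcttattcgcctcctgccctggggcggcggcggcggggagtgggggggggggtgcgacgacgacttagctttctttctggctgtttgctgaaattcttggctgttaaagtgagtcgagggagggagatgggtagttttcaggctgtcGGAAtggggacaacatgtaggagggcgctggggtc
Tal1, chr4:115056176-115056475, plus strand: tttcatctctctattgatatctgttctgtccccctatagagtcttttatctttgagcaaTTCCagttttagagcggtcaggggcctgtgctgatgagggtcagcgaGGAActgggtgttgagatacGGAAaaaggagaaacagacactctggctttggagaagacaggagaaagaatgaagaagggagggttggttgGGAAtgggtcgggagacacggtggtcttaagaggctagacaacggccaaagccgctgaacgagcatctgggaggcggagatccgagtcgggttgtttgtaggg
Etv6, chr6:134035450-134035749, plus strand: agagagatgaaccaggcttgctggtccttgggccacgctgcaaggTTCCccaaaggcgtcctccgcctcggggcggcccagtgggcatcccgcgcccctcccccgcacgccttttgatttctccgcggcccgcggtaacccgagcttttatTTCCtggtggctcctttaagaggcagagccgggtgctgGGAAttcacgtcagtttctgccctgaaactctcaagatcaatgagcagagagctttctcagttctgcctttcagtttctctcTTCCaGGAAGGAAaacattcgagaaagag
RefSeq entries were used for 6 of the 8 genes, and none was found for Fli1 and Ets1. The window of Erg held 1 core, that of Ets2 1, Elk3 2, Gata2 3, Tal1 4 and Etv6 6, against a median of 3 over 32544 promoters of the same length, of which 96.0% held at least 1. The longer ETS words CCGGAA and CAGGAA, which contain the core, occurred on either strand in Etv6, with 2 matches, and in Elk3, with 1, and were not found in the other 4 windows. Of all promoters, 41.3% held such a word. Tal1 held 1 GATA word (AGATAA or TGATAA, either strand, in 18.5% of promoters) and 1 E-box (CANNTG, in 72.3%), which was of the type CAGATG (17.1%). No other window of the 6 held a GATA word or an E-box. These matches are descriptions of the letters in the windows.

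Each library held 24781070 to 36109975 counts. Levels are given in the usual CPM unit, the counts of a gene relative to the library total, with that total scaled by the trimmed mean of M values (TMM), which sets aside genes with extreme differences. The floor of 3 counts corresponds to 0.0831 to 0.121 CPM, and the lowest value of any of these factors was 9.37 CPM. Floors cover counting error only, while the 95% intervals below come from the fitted model and include the spread between libraries. The targeted genes did not separate the groups: Hdac2 stood at a log2 difference of -0.42 from WT in Hdac2 ECKO (adjusted p = 0.225, edgeR), and Ezh2 at 0.40 in Ezh2 ECKO (adjusted p = 0.615), with overlapping values in both. Hdac2 was as low in beta-catenin GOF (-0.43, adjusted p = 0.884), so its level in Hdac2 ECKO is no check of that label. As Ezh2 was not lower in the group of its own name, that group is called labelled Ezh2 ECKO. Whether the Hdac2 or the Ezh2 deletion leaves a transcript that is still counted is not stated, so these levels settle neither label. Ctnnb1 differed by -0.17 in beta-catenin GOF (adjusted p = 0.962), and a gain of function need not change its transcript. The 12 endothelial markers summed to 34940 to 43430 CPM in WT, 32470 to 46380 in labelled Ezh2 ECKO and 40560 to 48180 in beta-catenin GOF. In Hdac2 ECKO the sums, 27340 to 30180 CPM, lay wholly below WT, though 6 of the 12 markers had a log2 difference above 0. None of them was at 0 throughout a group. Markers of erythroid and mast cells, lineages that also use Tal1 and Gata2, were mostly haemoglobins and summed to 36140 to 61380 CPM in WT, 402 to 21680 in Hdac2 ECKO, 2522 to 6665 in labelled Ezh2 ECKO, then 512 to 35380 in beta-catenin GOF, with the mast cell marker Fcer1a at 0 in all. Pericyte and smooth muscle markers summed to 71.2 to 132 CPM in WT, 147 to 360 in Hdac2 ECKO, 64.6 to 86.4 in labelled Ezh2 ECKO, then 131 to 443 in beta-catenin GOF, and leukocyte markers to no more than 28.6 in any library. Platelet markers summed to 5.87 to 52.0 CPM, and neuron and glia markers to 5.59 to 71.8. The part of other cells in the results below was not tested. Fewer cells of a type and less RNA per cell cannot be told apart in these bulk libraries.

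The libraries also differed in how their counts depended on gene length. Across the genes tested, the deviation of a library from the mean of all libraries correlated with length at a Spearman rho of -0.31 to -0.25 in WT and -0.24 to -0.18 in beta-catenin GOF, but 0.19 to 0.39 in Hdac2 ECKO. In labelled Ezh2 ECKO, replicates 1 and 3 stood at 0.26 and 0.34 and replicate 2 at -0.32, so replicate 2 resembled WT in this respect and stood apart from its group. The sum of the 8 factors moved with it: 1069 and 1117 CPM in Hdac2 ECKO 1 and 3 and 1125 and 874 in labelled Ezh2 ECKO 1 and 3, but 758 in Hdac2 ECKO 2 and 700 in labelled Ezh2 ECKO 2, and 604 to 738 in the WT and beta-catenin GOF libraries. These correlations are across genes, which are not independent replicates. For this reason the difference of each factor from WT is followed by its value after a smooth trend in length and GC content was removed from every library.

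Erg, which maintains endothelial junctions and represses inflammatory genes, rose in Hdac2 ECKO and was the one factor of the 8 to pass the test against WT in any mutant. It lies on chromosome 16 at 95359169 to 95586593 (GRCm38, minus strand, ENSMUSG00000040732.20). Its levels in replicates 1, 2 and 3 were 43.6, 59.9 and 79.3 CPM in WT, against 147, 90.9 and 142 CPM in Hdac2 ECKO. Every Hdac2 ECKO library lay above every WT library, with replicate 2 the nearest to WT. Mean levels were 60.9 ± 17.9 CPM (SD, n = 3) and 127 ± 31.1 CPM (SD, n = 3) respectively, a log2 difference of 1.06 (SE 0.27, 95% interval 0.48 to 1.63, adjusted p = 0.036 by edgeR's quasi-likelihood test). With the length and GC trend removed the difference was 1.202 (adjusted p = 0.0329). Leaving out 1 library at a time gave 0.86 to 1.29, and the adjusted p exceeded 0.05 without WT 1 (0.147), WT 2 (0.106), Hdac2 ECKO 1 (0.162) or Hdac2 ECKO 3 (0.143). In these 4 fits at most 1 gene of all those tested passed.

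In labelled Ezh2 ECKO the levels of Erg were 108, 76.0 and 92.7 CPM, 2 of them above and 1 within the WT range, with a log2 difference of 0.60 (adjusted p = 0.184, and 0.89 with adjusted p = 0.0941 once corrected for length and GC). In beta-catenin GOF they were 78.8, 74.1 and 72.1 CPM, all within the WT range, with a difference of 0.30 (adjusted p = 0.929, corrected difference 0.32). The 3 beta-catenin GOF libraries were also the least spread, with a coefficient of variation of 4.58% against 29.4% in WT.

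Fli1, the nearest relative of Erg among these factors, did not pass in any contrast by edgeR. It lies on chromosome 9 at 32422204 to 32542861 (minus strand, ENSMUSG00000016087.13). Its levels were 103, 167 and 175 CPM in WT, then 287, 135 and 270 in Hdac2 ECKO, 317, 164 and 201 in labelled Ezh2 ECKO, with 141, 162 and 115 in beta-catenin GOF. Replicate 2 of both Hdac2 ECKO and labelled Ezh2 ECKO fell inside the WT range, while replicates 1 and 3 of both lay above it. The log2 differences from WT were 0.64 (adjusted p = 0.186), 0.62 (adjusted p = 0.253) and -0.09 (adjusted p = 0.986), in that order of mutants, and 0.71, 0.78 and 0.02 after the correction. With sample quality weights in limma, Fli1 passed in Hdac2 ECKO against WT (0.73, adjusted p = 0.0217) and in beta-catenin GOF against Hdac2 ECKO (-0.81, adjusted p = 0.0239). Because both transcripts are read in the same library, their count ratio needs no scaling: Fli1 counts were 2.36, 2.79 and 2.20 times Erg counts in WT, against 1.96, 1.48 and 1.90 times in Hdac2 ECKO. These groups did not overlap in this ratio, which was chosen after its values were seen and not tested. In labelled Ezh2 ECKO the ratio was 2.94, 2.16 and 2.17, and in beta-catenin GOF 1.79, 2.19 and 1.59. The beta-catenin GOF values thus also lay wholly below WT, so a ratio below WT was not particular to Hdac2 ECKO.

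**Figure D1:**
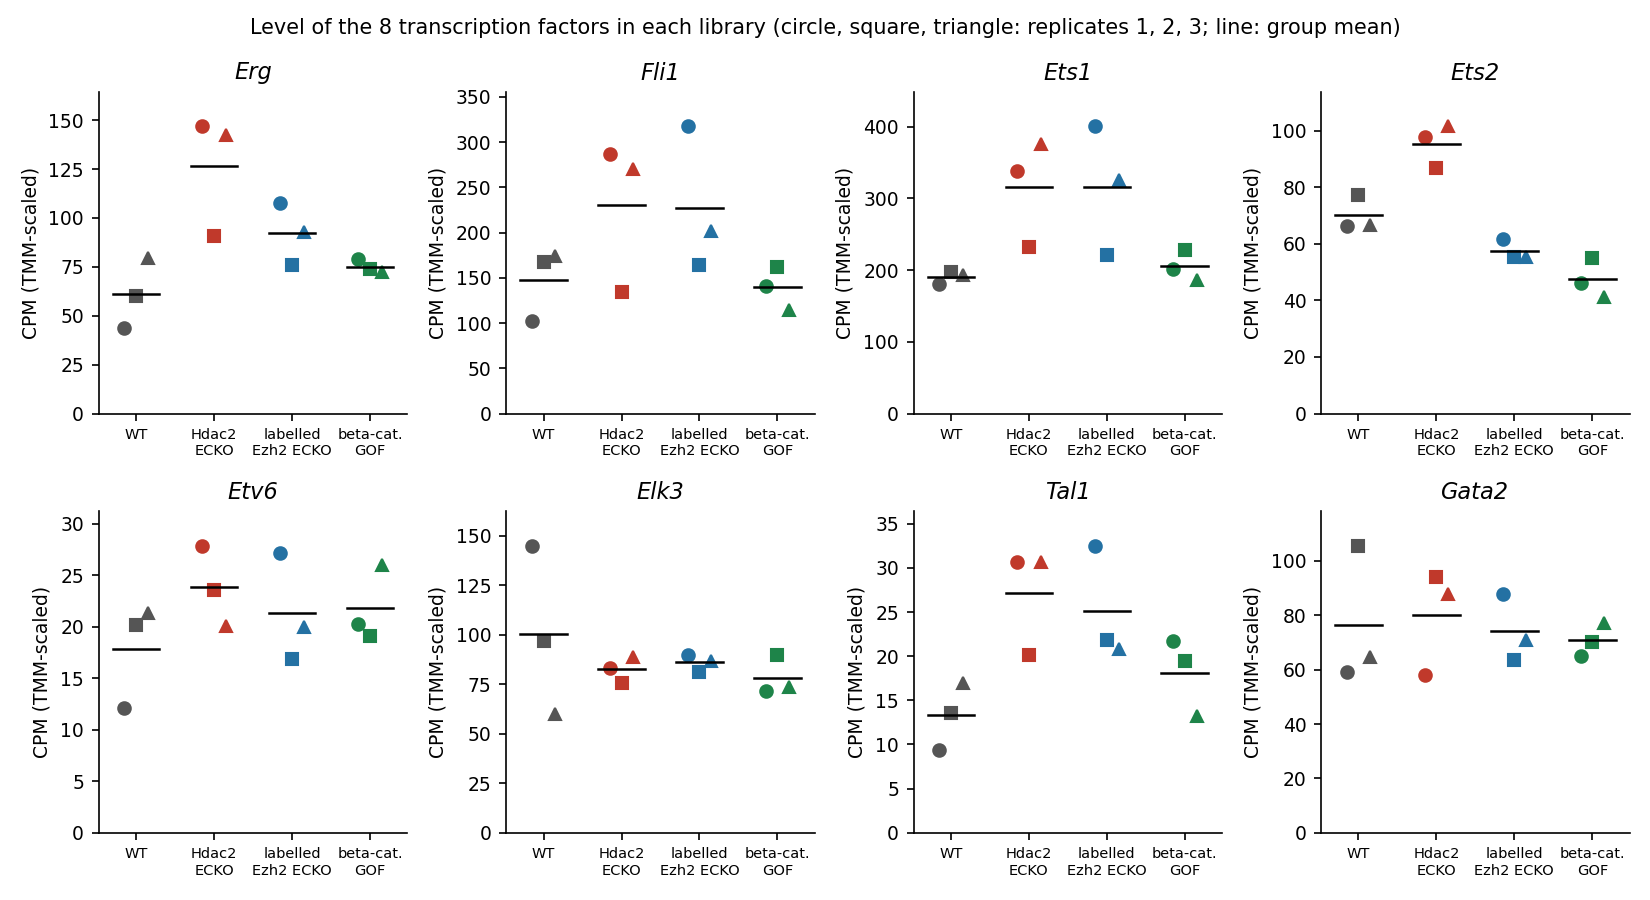
CPM of each factor (vertical axis, from 0) in the 12 libraries, by group (horizontal axis); circles, squares and triangles are replicates 1, 2 and 3 and the line is the group mean. Erg, Ets1, Ets2 and Tal1 lie higher in all 3 Hdac2 ECKO libraries than in any WT library, as did 19.5% of all genes tested. Ets2 is the one factor whose 4 groups do not overlap. The share of all genes with that last pattern was not counted.

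Ets1, which is induced in angiogenic endothelium, and Ets2, a target of growth factor signalling through the MAP kinases, differed in direction in labelled Ezh2 ECKO. Both stood above WT in Hdac2 ECKO. Ets1 lies on chromosome 9 at 32636221 to 32757820 (plus strand, ENSMUSG00000032035.15). It stood at 180, 197 and 193 CPM in WT, the least spread group for this gene. In Hdac2 ECKO it stood at 338, 232 and 376 CPM and in labelled Ezh2 ECKO at 400, 221 and 326 CPM, and all 6 of these libraries exceeded every WT library. The log2 differences were alike, 0.73 (SE 0.26, adjusted p = 0.0746) and 0.73 (SE 0.26, adjusted p = 0.112), and neither passed. In beta-catenin GOF the values of 201, 229 and 186 CPM overlapped WT, with a difference of 0.11 (adjusted p = 0.974, corrected difference -0.01). Ets1 has the longest gene model of the 8, at 8476 bases. Removal of the length and GC trend lowered its difference to 0.15 in Hdac2 ECKO (adjusted p = 0.683) and to 0.43 in labelled Ezh2 ECKO (adjusted p = 0.212). Without labelled Ezh2 ECKO 2, the uncorrected difference of that group was 0.93 (adjusted p = 0.0193), and without Hdac2 ECKO 2 that of Hdac2 ECKO was 0.86 (adjusted p = 0.0418).

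Ets2 was the one factor whose 4 groups were fully separate. It lies on chromosome 16 at 95702075 to 95721051 (plus strand, ENSMUSG00000022895.16). Its levels were 97.8, 86.7 and 102 CPM in Hdac2 ECKO, 66.4, 77.4 and 66.5 in WT, 61.9, 55.3 and 55.2 in labelled Ezh2 ECKO, then 46.2, 54.8 and 41.2 in beta-catenin GOF. The gap between the last pair of groups was narrow, from 55.2 to 54.8 CPM. How many of all tested genes had 4 separate groups was not counted. Against WT the log2 differences were 0.44 (SE 0.21, adjusted p = 0.16), -0.29 (SE 0.21, adjusted p = 0.419) and -0.56 (SE 0.21, unadjusted p = 0.0185, adjusted p = 0.748), and none passed. The corrected differences were 0.23, -0.28 and -0.69. The contrast of beta-catenin GOF with Hdac2 ECKO was the largest for this gene, at -1.01 (SE 0.22, 95% interval -1.47 to -0.55, unadjusted p = 0.000279, adjusted p = 0.163). It passed with DESeq2 (adjusted p = 0.00196) and, in edgeR, with no filter on low counts (adjusted p = 0.0322). Once the length and GC trend was taken out it was -0.92 (adjusted p = 0.145). Labelled Ezh2 ECKO also lay below Hdac2 ECKO (log2 difference of Hdac2 ECKO from it 0.73, adjusted p = 0.426). Erg and Ets2 are neighbours on chromosome 16, on opposite strands and with 0 table genes between them, and Ets1 and Fli1 are neighbours in the same way on chromosome 9. Erg counts were 0.656, 0.773 and 1.19 times Ets2 counts in WT, 1.501, 1.05 and 1.40 times in Hdac2 ECKO, 1.74, 1.38 and 1.68 times in labelled Ezh2 ECKO, and then 1.71, 1.35 and 1.75 times in beta-catenin GOF. The ratio was thus above every WT library in labelled Ezh2 ECKO and beta-catenin GOF, and in 2 of 3 Hdac2 ECKO libraries. It was not corrected for length, and the gene models of Erg and Ets2 are 3466 and 5780 bases long.

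The repressors Etv6 and Elk3 showed no difference that passed. Etv6, which also forms fusion proteins in leukaemia, lies on chromosome 6 at 134035700 to 134270158 (plus strand, ENSMUSG00000030199.16). It stood at 12.1, 20.1 and 21.3 CPM in WT and at 16.9 to 27.9 CPM in the 9 mutant libraries, with log2 differences of 0.42, 0.26 and 0.29 in Hdac2 ECKO, labelled Ezh2 ECKO and beta-catenin GOF (lowest adjusted p = 0.334), and 0.11, 0.18 and 0.18 after the correction. Elk3, a ternary complex factor that works with serum response factor, lies on chromosome 10 at 93247414 to 93311135 (minus strand, ENSMUSG00000008398.15). It stood at 145, 96.9 and 59.8 CPM in WT, which spans all 9 mutant values of 71.4 to 89.8 CPM. Its log2 differences were -0.28, -0.23 and -0.36 (lowest adjusted p = 0.494), and -0.38, -0.12 and -0.35 after the correction. Those in Hdac2 ECKO and labelled Ezh2 ECKO turned to 0.08 and 0.13 without WT 1, the library with the highest Elk3 value. Elk3 overlaps Cdk17 on the opposite strand, and Fli1, Ets1 and Etv6 overlap antisense or unclassified genes in GENCODE M21. Whether counting used the strand is not stated, so reads in these overlaps could belong to either gene.

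Tal1 was higher in Hdac2 ECKO and in labelled Ezh2 ECKO in every library, and its test against WT missed the threshold in both. It lies on chromosome 4 at 115056426 to 115071755 (plus strand, ENSMUSG00000028717.12). Its levels were 9.37, 13.6 and 16.95 CPM in WT, then 30.7, 20.1 and 30.7 in Hdac2 ECKO, 32.5, 21.8 and 20.8 in labelled Ezh2 ECKO, then 21.7, 19.5 and 13.2 in beta-catenin GOF. The log2 difference in Hdac2 ECKO was 1.03 (SE 0.32, 95% interval 0.36 to 1.70, adjusted p = 0.0522) and in labelled Ezh2 ECKO 0.92 (SE 0.32, 95% interval 0.24 to 1.59, adjusted p = 0.105). In beta-catenin GOF it was 0.45 (adjusted p = 0.91, corrected difference 0.39), with overlapping values. Removal of the length and GC trend left 1.02 in Hdac2 ECKO (adjusted p = 0.0694) and gave 1.10 in labelled Ezh2 ECKO (adjusted p = 0.0747). The size of the difference thus held, while the side of the threshold depended on the fit: Tal1 passed in Hdac2 ECKO with DESeq2 (adjusted p = 0.0222), and in 8 of 17 alternative fits.

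Gata2, a partner of Tal1 in a shared complex, showed small differences with no constant sign. It lies on chromosome 6 at 88193891 to 88207032 (plus strand, ENSMUSG00000015053.14). It stood at 59.3, 106 and 64.7 CPM in WT, then 57.9, 94.1 and 88.0 in Hdac2 ECKO, 87.9, 63.4 and 71.1 in labelled Ezh2 ECKO, then 65.1, 70.1 and 77.2 in beta-catenin GOF. All mutant values but 1 lay within the WT range. The log2 differences were 0.06 (95% interval -0.51 to 0.64), -0.05 (-0.62 to 0.53) and -0.11 (-0.69 to 0.47), with corrected values of -0.04, 0.10 and -0.21, and the sign changed with the fit in each contrast. Gata2 counts were 6.33, 7.79 and 3.82 times Tal1 counts in WT, 1.89, 4.68 and 2.87 times in Hdac2 ECKO, 2.70, 2.91 and 3.41 times in labelled Ezh2 ECKO, and then 3.00, 3.59 and 5.84 times in beta-catenin GOF. The ratio, not corrected for length or GC content, lay below all WT libraries in labelled Ezh2 ECKO and overlapped them in the other mutants.

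**Figure D2:**
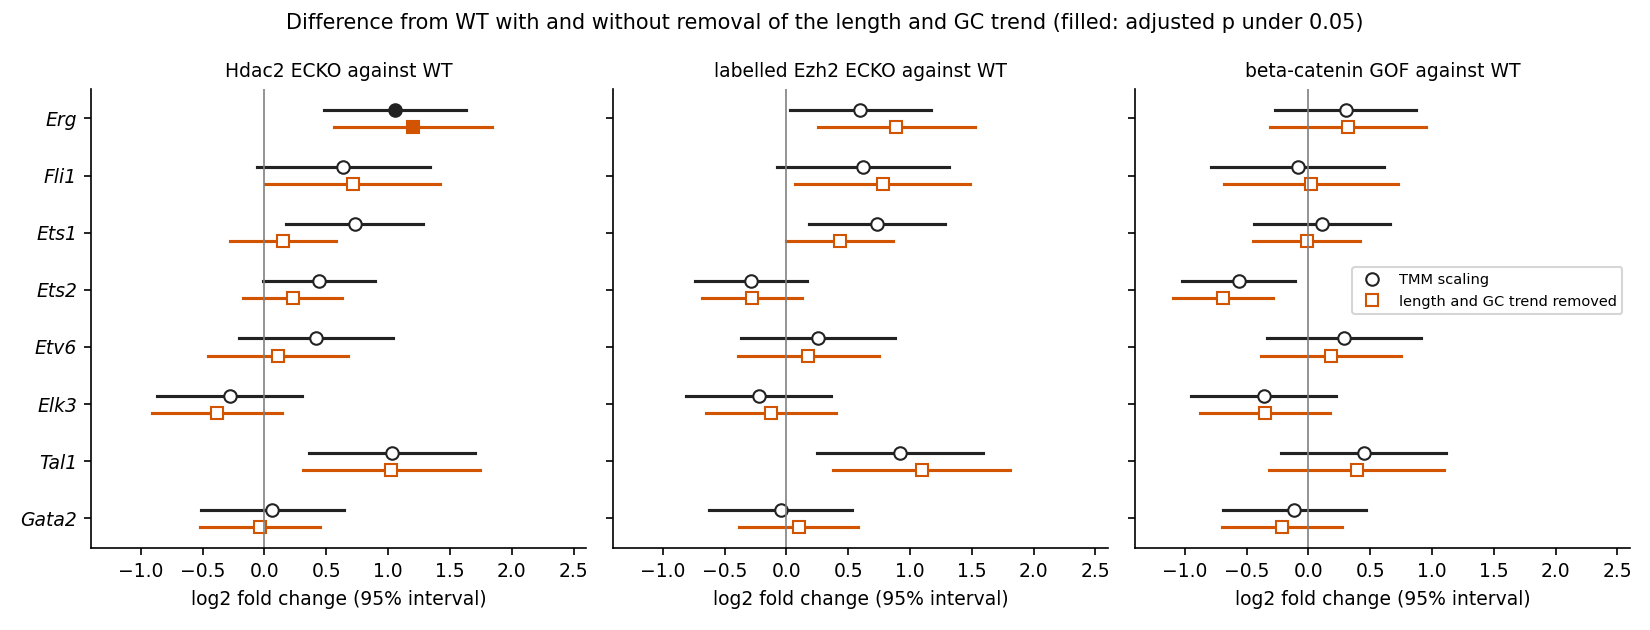
Log2 fold change of each factor from WT (horizontal axis) with its 95% interval, in the 3 mutants; black circles are from TMM scaling, orange squares once the length and GC trend was taken out, and filled symbols passed the test. Erg in Hdac2 ECKO is filled in both fits, Tal1 keeps its position between fits, and Ets1 in Hdac2 ECKO moves from 0.73 to 0.15.

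Across the 8 factors, 1 passed in Hdac2 ECKO against WT, where 9.2% of all tested genes passed (3.82% higher and 5.38% lower), 0 passed in labelled Ezh2 ECKO, where 1.03% did, and 0 in beta-catenin GOF, where 0% did. At an unadjusted p under 0.05 the counts were 3 (Erg, Ets1 and Tal1), 3 (Erg, Ets1 and Tal1) and 1 (Ets2), against 33.1%, 24.7% and 6.07% of all genes. DESeq2 called 0 factors in both of the latter mutants as well. The values of 4 factors (Erg, Ets1, Ets2 and Tal1) lay wholly above WT in Hdac2 ECKO, against 19.5% of all genes, and those of 0 lay wholly below, against 18.2%. The labelled Ezh2 ECKO values of 2 factors (Ets1 and Tal1) lay wholly above, against 11.1%, and 1 (Ets2) wholly below, against 10.9%. In beta-catenin GOF 0 lay wholly above, against 6.83%, and 1 (Ets2) wholly below, against 5.87%. The median log2 difference of the 8 was 0.54, 0.43 and 0.01 in the 3 mutants, against 0.10, 0.05 and 0.01 over all genes. With library size alone as the scaling, the median of all genes in Hdac2 ECKO moved to 0.34 and that of the 8 to 0.78. With the length and GC trend removed, the median of the 8 was 0.19 in Hdac2 ECKO and 0.31 in labelled Ezh2 ECKO. The 3 contrasts share the WT libraries, so values that recur between mutants are not separate observations of WT.

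Between mutants no factor passed by edgeR with TMM scaling, the filter on low counts and all 12 libraries. Without the filter, or without Hdac2 ECKO 2, Ets2 passed in beta-catenin GOF against Hdac2 ECKO. Against labelled Ezh2 ECKO, Hdac2 ECKO differed in 1 factor at an unadjusted p under 0.05 (Ets2), where 8.19% of genes did and 0.0239% passed. Against Hdac2 ECKO, beta-catenin GOF differed in 4 (Erg, Fli1, Ets1 and Ets2), where 21.1% of genes did and 0.0716% passed, and Erg stood at -0.76 (adjusted p = 0.169). Against labelled Ezh2 ECKO, beta-catenin GOF differed in 2 (Fli1 and Ets1), where 13.2% did and 0.0636% passed. DESeq2 called 1 factor, Ets2, in the contrast of beta-catenin GOF with Hdac2 ECKO and 0 in the other contrasts between mutants. The 95% interval for Tal1 in Hdac2 ECKO minus labelled Ezh2 ECKO ran from -0.55 to 0.78, and that for Erg from -0.11 to 1.03, so the data do not show that the factors were alike in these groups.

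Compared per length of gene model, Fli1 was the most abundant of the 8, at a mean of 53.5 CPM per kb over the 12 libraries, which placed it at the 90.9 percentile of the tested genes. Ets1 followed at 30.3 and Erg at 25.6 CPM per kb, then Elk3 at 19.1, Gata2 at 14.0 and Ets2 at 11.7. Tal1 at 4.78 and Etv6 at 3.54 CPM per kb were the lowest, with Etv6 at the 51.6 percentile. Fli1 exceeded Ets1 in 12 of 12 libraries and Ets2 exceeded Tal1 in 12 of 12. The other neighbours in this order changed places in some libraries: Ets1 exceeded Erg in 10, Erg exceeded Elk3 in 10, Elk3 exceeded Gata2 in 11, Gata2 exceeded Ets2 in 9 and Tal1 exceeded Etv6 in 10. In Hdac2 ECKO the mean of Erg, 36.5 ± 8.96 CPM per kb (SD, n = 3), was close to that of Ets1, 37.2 ± 8.76 CPM per kb (SD, n = 3), and in WT the means were 17.6 ± 5.16 and 22.4 ± 1.04 CPM per kb (SD, n = 3 each).

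**Figure D3:**
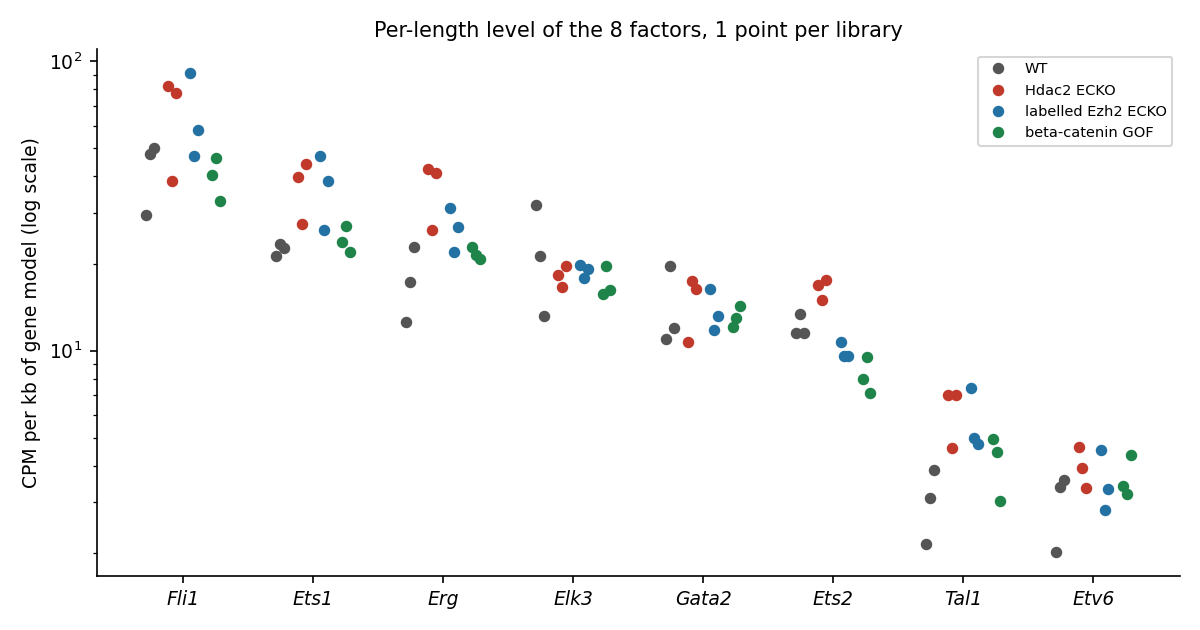
Level per kb of gene model (vertical log axis, CPM per kb) of the 8 factors, 1 point per library and coloured by group, ordered by their mean. Fli1 lies above Ets1 in every library, Tal1 and Etv6 lie lowest, and the order among Ets1, Erg, Elk3, Gata2 and Ets2 is not the same in every library.

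Over the 12 libraries Erg and Tal1 varied together. Pearson's r of log2 CPM was 0.92 (permutation p = 2e-05, adjusted over 28 pairs of factors 0.00056) and Spearman's rho 0.84 (permutation p = 0.00109, adjusted 0.0102). Without Hdac2 ECKO 1 and WT 1, the libraries farthest from the median of Erg, r was 0.85, and r of the deviations from the group means was 0.85. Erg and Fli1 gave r = 0.83 (permutation p = 0.00089, adjusted 0.00415) and rho = 0.78 (permutation p = 0.00414, adjusted 0.0288), with r = 0.71 without the same libraries and 0.90 for the deviations. Erg and Ets2 gave r = 0.48 (permutation p = 0.112, adjusted 0.262) and rho = 0.46 (permutation p = 0.133, adjusted 0.464), with r = 0.50 without those libraries and 0.38 for the deviations. Fli1 and Tal1 gave r = 0.86 (permutation p = 0.00025, adjusted 0.00175) and rho = 0.76 (adjusted 0.029), with 0.89 for the deviations. Of the 28 pairs, 6 had an adjusted permutation p of r under 0.05. They include the pairs of Ets1 with Erg, Fli1 and Tal1, whose r is not given because of the clusters described below. Libraries were permuted freely across the groups, so differences between groups enter these p-values. Gata2 followed neither Erg (r = 0.09, permutation p = 0.77, adjusted 0.862, rho = 0.02) nor Tal1 (r = 0.08, permutation p = 0.805, adjusted 0.867, rho = -0.04). For Ets1, 4 libraries at 326 to 400 CPM (Hdac2 ECKO 1 and 3 and labelled Ezh2 ECKO 1 and 3) stood apart from the other 8 at 180 to 232 CPM, and no pooled correlation is given for it. The same 4 libraries had the highest Fli1 levels. They are also the libraries with the most positive relation to gene length, and the part of that relation in these correlations was not tested.

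**Figure D4:**
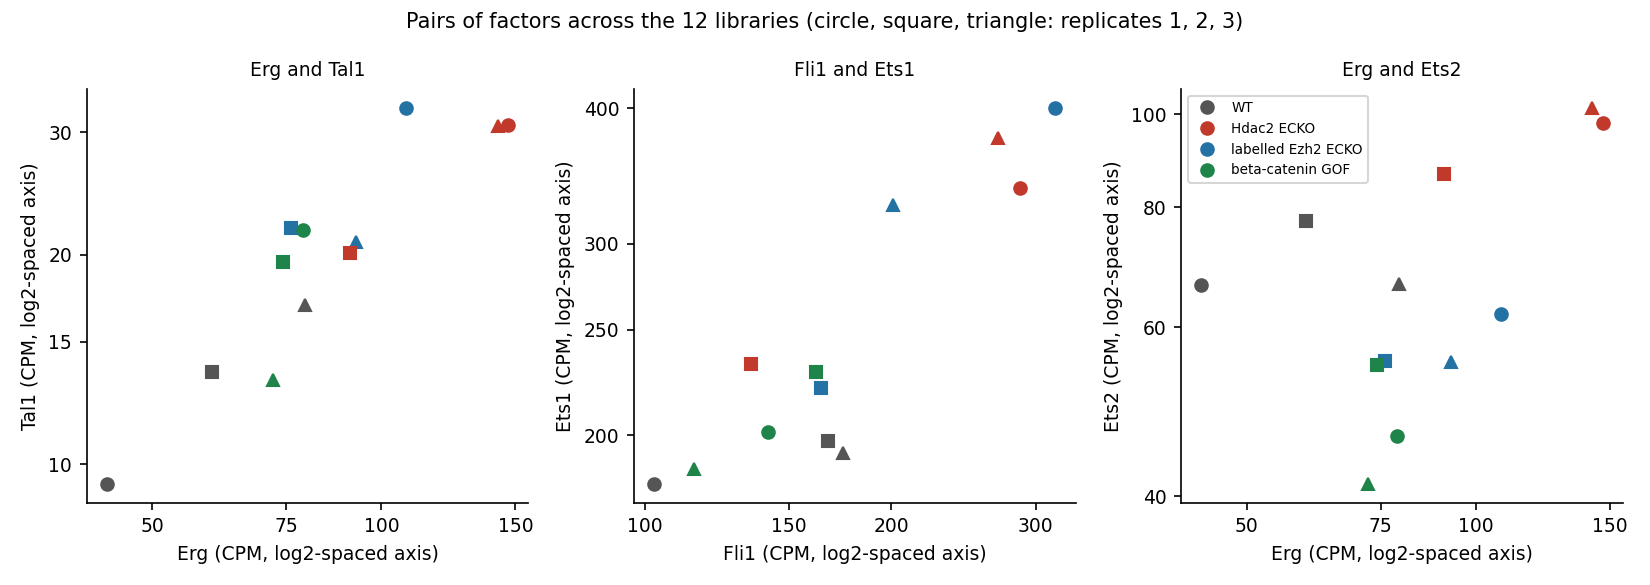
CPM of pairs of factors in the 12 libraries on log axes: Tal1 against Erg, Ets1 against Fli1 and Ets2 against Erg; colours are groups and circles, squares and triangles are replicates 1, 2 and 3. Tal1 rises with Erg, 4 libraries stand apart in Ets1, and the libraries of labelled Ezh2 ECKO and beta-catenin GOF lie below those of WT and Hdac2 ECKO in Ets2 at any level of Erg.

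The tested genes most like each factor over the 12 libraries, by Pearson's r of log2 CPM and as a description with no test, were Son (0.974) and Klf7 (0.972) for Erg. For Fli1 they were Fbxw11 (0.971) and 8030462N17Rik (0.952), and for Tal1 Arhgef7 (0.961) and Dnah7c (0.956). The nearest genes were less alike for Gata2 (Nsmf, 0.891, and Cerk, 0.889), Elk3 (Cbll1, 0.882, and Palmd, 0.879), Ets2 (Pdcd4, 0.876, and Nudt13, 0.873) and Etv6 (Il1r1, 0.913, and Kctd4, 0.910). None are named for Ets1, whose libraries stood in separate clusters. These points share the scaling and the length relation of the libraries.

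Among the 20 other genes of the ETS family, all in the table, 10 passed the count filter. In Hdac2 ECKO 1 rose and 0 fell, where 3.82% of all tested genes were called higher and 5.38% lower. The median log2 difference was 0.45, and with length and GC corrected it was 0.04. The one that rose was Elk4, a ternary complex factor related to Elk3, from 44.5 ± 11.0 to 101 ± 18.8 CPM (SD, n = 3 each; log2 difference 1.18, SE 0.26, adjusted p = 0.0327, and 0.79 with adjusted p = 0.0375 once the length and GC trend was taken out). Gabpa, the most abundant of this list and a factor for housekeeping and mitochondrial genes, stood at 0.03 (adjusted p = 0.929), and its sign changed between fits. By edgeR 0 of these 10 genes passed in labelled Ezh2 ECKO or beta-catenin GOF, with medians of 0.44 and 0.02. At an unadjusted p under 0.05 the counts were 3 and 0, beside 24.7% and 6.07% of all genes. DESeq2 called 2 higher in labelled Ezh2 ECKO (Elk4 and Elf2), as did quality weights, the replicate block 1 (Elk4), and limma with a trend 0. Over all genes these fits called 1280, 3743, 536 and 243 there, in that order. None of these fits called any in beta-catenin GOF. The 10 that were not tested for low counts were Etv2, Etv4, Fev, Elf3, Elf5, Ehf, Spi1, Spib, Spic and Spdef. Spi1 is the ETS factor of myeloid cells and Etv2 that of the embryonic origin of blood and endothelium.

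Of 15 genes for partners of Tal1 and GATA factors, 11 were tested, and 3 rose and 0 fell in Hdac2 ECKO, beside the shares of 3.82% and 5.38% over all genes. The median was 0.54. With length and GC corrected 1 call was left, Tcf3, and the median was 0.26. Tcf4, which encodes an E protein, stood at 337 ± 70.7 CPM in WT against 782 ± 210 CPM in Hdac2 ECKO (SD, n = 3 each; log2 difference 1.21, SE 0.29, adjusted p = 0.0338), but at 0.13 (adjusted p = 0.723) once the length and GC trend was taken out. Tcf3, another E protein, stood at 17.7 ± 1.97 and 35.97 ± 5.97 CPM (log2 difference 1.03, SE 0.30, adjusted p = 0.0454), and at 1.25 (adjusted p = 0.0284) once the trend was taken out. Runx1, a factor of the endothelial-to-blood transition that works with Tal1 and Gata2, had 2, 4 and 2 counts in WT and 90, 38 and 68 in Hdac2 ECKO (adjusted p = 0.0388, and 0.0644 once the trend was taken out). DESeq2 called Tcf3 and Tcf4 in this contrast but not Runx1. At such counts its fitted fold depends on the prior and is not given. Lmo2, the bridging protein, stood at 0.08 (adjusted p = 0.845), with 328 ± 31.7 CPM in WT against 348 ± 54.2 CPM in Hdac2 ECKO (SD, n = 3 each). As for these 11 genes, edgeR called 0 in labelled Ezh2 ECKO and beta-catenin GOF, with medians of 0.22 and -0.06. An unadjusted p under 0.05 was found for 5 and 2, beside 24.7% and 6.07% of all genes. DESeq2 called 2 higher in labelled Ezh2 ECKO (Tcf4 and Runx1), quality weights 2 higher and 1 lower, and limma with a trend 0. Over all genes these fits called 1280, 3743 and 243 there, in that order. In beta-catenin GOF these fits called 0. Gata1, Gata4, Gata5 and Zfpm2 were not tested for low counts.

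All 28 endothelial genes listed for their known ETS input were tested, and in Hdac2 ECKO 1 rose and 2 fell, shares near the 3.82% and 5.38% of all genes. The median was 0.30, and with length and GC corrected it was 0.06. DESeq2 called 2 higher and 6 lower, and 2553 of all genes in either direction. Robo4, a receptor that stabilises the endothelial barrier, rose from 50.2 ± 3.22 to 87.3 ± 6.39 CPM (SD, n = 3 each; log2 difference 0.80, SE 0.22, adjusted p = 0.0398). Icam2, an adhesion molecule of the endothelial surface, fell from 411 ± 109 to 146 ± 71.5 CPM (log2 difference -1.50, SE 0.35, adjusted p = 0.034). Egfl7, a secreted vessel matrix protein whose gene hosts a microRNA, fell from 833 ± 273 to 320 ± 92.4 CPM (log2 difference -1.38, SE 0.33, adjusted p = 0.0342). Once the length and GC trend was taken out these stood at 0.68 (adjusted p = 0.042), -1.02 (adjusted p = 0.0326) and -1.15 (adjusted p = 0.0277). The most abundant genes of the list were Flt1, a VEGF receptor, at 0.66 (adjusted p = 0.084, and -0.05 once the trend was taken out), and Emcn, an endothelial sialoglycoprotein, at -0.53 (adjusted p = 0.139). Of these 28 genes edgeR called 0 in both labelled Ezh2 ECKO and beta-catenin GOF, with medians of 0.09 and 0.09. There 9 and 4 had an unadjusted p under 0.05, beside 24.7% and 6.07% of all genes. The length and GC correction called 1 higher in labelled Ezh2 ECKO (Thbd, which encodes the anticoagulant receptor thrombomodulin), DESeq2 1 higher and 2 lower, limma with a trend 1 and 1, the replicate block 1 higher and 3 lower, and quality weights 7 and 5. Over all genes these fits called 333, 1280, 243, 536 and 3743 there, in that order. In beta-catenin GOF these fits gave 0 calls. Without any one of WT 1, WT 2, Hdac2 ECKO 1 or Hdac2 ECKO 3, the calls of Elk4, Tcf4, Tcf3, Runx1, Robo4, Icam2 and Egfl7 were lost, as was that of Erg, and those of Tcf3 and Runx1 were also lost without WT 3 (adjusted p of 0.0702 and 0.052). Robo4 did not pass with no count filter (adjusted p = 0.0756), nor Tcf3 with median-ratio scaling (adjusted p = 0.0527). Runx1 did not pass with DESeq2, and its call was lost in 8 of 16 alternative fits. Pericyte and smooth muscle markers moved in the same contrast, with 5 of 12 tested higher and 0 lower in Hdac2 ECKO, and their part in these lists was not tested.

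**Figure D5:**
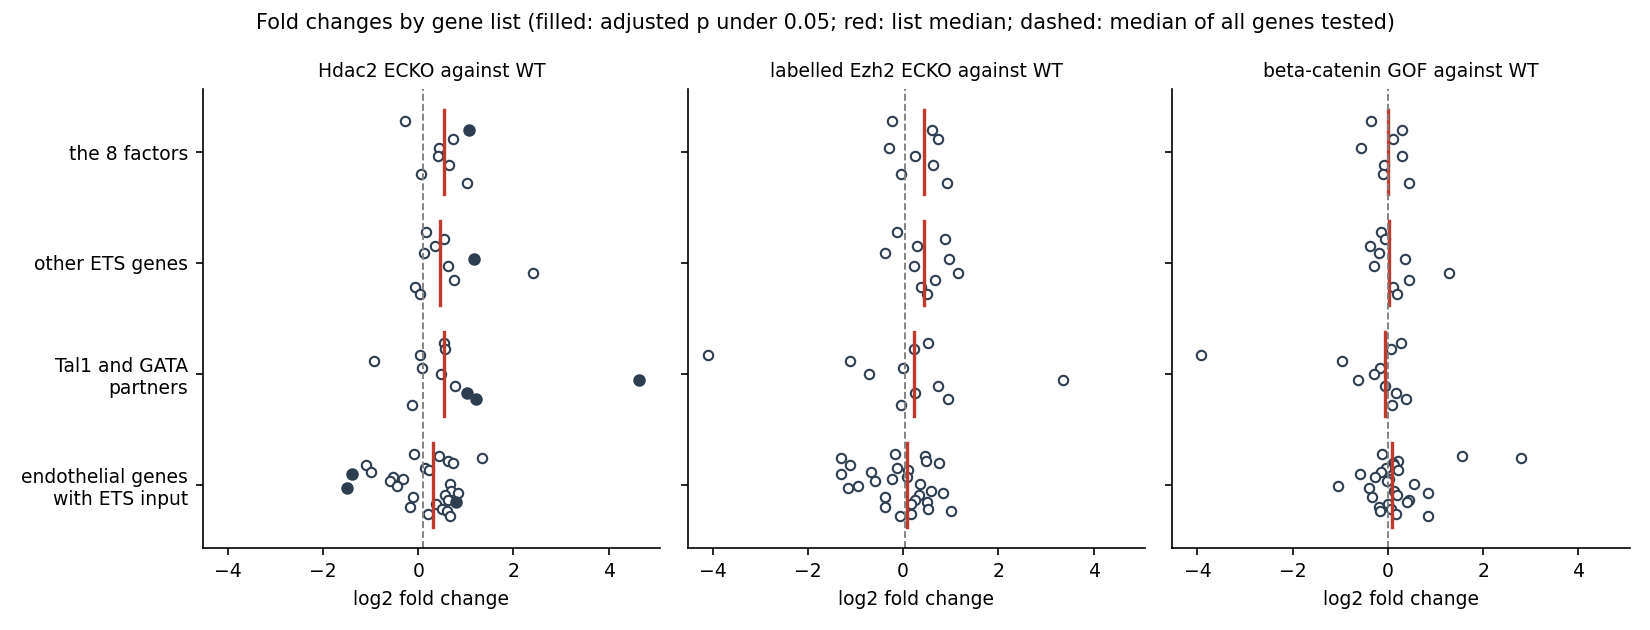
Log2 fold change from WT (horizontal axis) of each tested gene in 4 lists, for the 3 mutants; filled points passed the test, the red line is the median of the list and the dashed line that of all genes tested. In Hdac2 ECKO 1 of the 8 factors, 1 other ETS gene, 3 partner genes and 3 endothelial genes with ETS input are filled. In the other mutants no point is filled.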

How the data were processed

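Values for each gene in each of 12 libraries came from 1 deposited table. Its name calls the values normalized, but the deposited values are whole-number counts whose totals differ between libraries, and they were treated as raw counts. In each library 79.5% to 84.0% of the values from 10 to 50 were even, and the reason was not tested. The floor of 3 counts and the chi-square below take each count as a separate unit, which so many even values put in doubt. The submitters' processing notes name FastQC, cutadapt, STAR, featureCounts, DESeq2 and mm10, with no versions or roles. Library preparation used SMART-Seq v4 PLUS, a low-input full-length cDNA method, and paired-end sequencing, per the labels' protocols. Gene length and position came from the deposited table, per the file headers, and starts were written from 1. Of the genes, 99.0% matched GENCODE M21 by symbol, strand and position, which gave GC content.

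Genes were tested by quasi-likelihood in edgeR 4.0.16 under R 4.3.3, with TMM scaling and 1 term per group over all 12 libraries. A mean of 10 counts or more was required, and Benjamini-Hochberg adjustment ran over all 12577 in each of the 6 contrasts, at 0.05. Standard errors came from the F statistic. Alternatives were median-ratio scaling, library size alone, no filter, a mean of at least 50, DESeq2 1.42.0, limma 3.58.1 with a trend or with sample quality weights, only the 2 groups compared, the replicate number as a block, removal of a spline trend (5 degrees of freedom each) in length and GC content, and leaving out each library. The script was tested on simulated data. Depth was 24781070 to 36109975 counts per library. No 2 libraries of a group were alike within counting noise (lowest chi-square divided by its degrees of freedom 65.2).

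The 8 factors and all gene lists were chosen with earlier results of these data known. Named from the other lists were the genes past the threshold, at most 4 a list, and the 2 of highest mean CPM. Correlations used 100000 permutations.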

Additional observations from a re-analysis of the deposited data

Results flagged for a closer look

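Ets2, a target of MAP kinase signalling, was the one factor that left WT in opposite directions in different mutants. Its log2 difference from WT was 0.44 in Hdac2 ECKO, with all 3 libraries above all 3 WT libraries, but -0.29 in labelled Ezh2 ECKO, as well as -0.56 in beta-catenin GOF, with all 3 libraries of each below all WT libraries. None of these differences passed edgeR's test. The direct contrasts of the mutants did not pass either with the filter on low counts and all libraries: Hdac2 ECKO against labelled Ezh2 ECKO gave 0.73 (adjusted p = 0.426) and beta-catenin GOF against Hdac2 ECKO gave -1.01 (adjusted p = 0.163). The latter had an adjusted p of 0.00196 by DESeq2 and 0.0322 in edgeR with no filter. The pattern was noticed among 8 factors in data that share 1 set of WT libraries.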

How the results depend on the processing

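In Hdac2 ECKO against WT, the count of factors past the threshold was 1 and rose to 3 with library size alone, 2 with no filter, 2 with a mean count of at least 50, 3 with DESeq2, 2 with limma and 5 with sample quality weights, and ranged from 0 to 3 when 1 library was left out. In labelled Ezh2 ECKO it was 0, and 3 with quality weights and 0 to 1 with 1 library left out. For beta-catenin GOF against Hdac2 ECKO it was 0, and 1 with no filter, 1 with DESeq2, 4 with quality weights and 0 to 1 with 1 library left out. For beta-catenin GOF against labelled Ezh2 ECKO it was 0, and 1 with quality weights. Counts over all genes moved as well. In Hdac2 ECKO they went from 1157 to 1826 with library size alone, 2279 with no filter and 1411 with a mean count of at least 50. With DESeq2 they were 2553 there, with limma 1594 and with quality weights 5374. In labelled Ezh2 ECKO they went from 129 to 1367 with no filter, 1280 with DESeq2 and 3743 with quality weights. For beta-catenin GOF against Hdac2 ECKO and against labelled Ezh2 ECKO, 9 and 8 of all genes passed with TMM scaling and the filter. The totals of the other fits in these contrasts are not given, so their higher counts of factors have no share beside them. The replicate block gave the same counts of factors as the fit without it, 1 in Hdac2 ECKO and 0 in the other contrasts. The shared replicate numbers did not pair the libraries by the rule used, and 6 of 12 libraries correlated best with their own number. Over all genes the block moved the calls in Hdac2 ECKO from 1157 to 1832.

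Values near 0 changed sign. Gata2 in Hdac2 ECKO went to -0.07 with quality weights, -0.04 with the length and GC correction, -0.03 with that correction and the block, and -0.12 to 0.37 with 1 library left out. Gata2 in labelled Ezh2 ECKO went to 0.10 and 0.12 with the correction, without and with the block, and to -0.21 to 0.26 with 1 library left out. Elk3 went to 0.08 in Hdac2 ECKO and 0.13 in labelled Ezh2 ECKO without WT 1, the upper ends of leave-one-out ranges from -0.55 and -0.49. In beta-catenin GOF, Fli1 went to 0.02 and 0.01 with the correction, without and with the block, and to -0.29 to 0.05 with 1 library left out, Ets1 went to -0.01 with the correction, with and without the block, and Gata2 went to 0.19 without WT 2. Among the genes of the other lists, for which the alternatives were added after seeing the data, Gabpa in Hdac2 ECKO went to -0.02 with median-ratio scaling, -0.02 with DESeq2, 0 with only the 2 groups compared, -0.27 and -0.28 with the correction without and with the block, and -0.06 without Hdac2 ECKO 3. Lmo2 went to -0.03 without Hdac2 ECKO 1, with a highest leave-one-out value of 0.15, and Flt1 to -0.05 and -0.07 with the correction. The cause was not tested. Leave-one-out fits hold 2 libraries in an arm, and the lowest level of any factor, 9.37 CPM, lay far above the floor of 3 counts.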

Other observations

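Some values of partner and relative genes were chosen after they were seen and are given with no explanation. Gata6, another endothelial GATA factor, stood at 1.25 ± 0.399 CPM (SD, n = 3) in WT and 1.29 ± 1.25 CPM in Hdac2 ECKO, but at 0.0683 ± 0.0594 CPM in labelled Ezh2 ECKO, then 0.0774 ± 0.134 CPM in beta-catenin GOF (SD, n = 3 each). Both of the latter groups lay wholly below WT and neither passed edgeR's test (adjusted p = 0.155 and 0.785), and their means were under the floor of 3 counts per library. Elf2, a broadly expressed ETS factor, lay wholly above WT in labelled Ezh2 ECKO, at 38.7 ± 10.9 against 21.04 ± 2.07 CPM (SD, n = 3 each; log2 difference 0.88, adjusted p = 0.0826, and 0.52 with adjusted p = 0.157 once corrected for length and GC). Thbd, which encodes the anticoagulant receptor thrombomodulin, did so too, at 232 ± 26.1 against 115 ± 29.7 CPM (SD, n = 3 each; log2 difference 1.01, adjusted p = 0.0627). It missed the threshold there and passed after the correction, at 1.27 (adjusted p = 0.0433).

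The count ratio of Ets1 to its neighbour Fli1 needs no scaling by library total, but it still carries the length relation. The gene models are 8476 and 3486 bases long. After the length and GC correction the log2 differences from WT of Ets1 and Fli1 were 0.15 and 0.71 in Hdac2 ECKO. In labelled Ezh2 ECKO they were 0.43 and 0.78, and in beta-catenin GOF -0.01 and 0.02. The uncorrected ratio was 1.35 ± 0.358 in WT, 1.43 ± 0.276 in Hdac2 ECKO, 1.41 ± 0.188 in labelled Ezh2 ECKO, then 1.49 ± 0.119 in beta-catenin GOF (SD, n = 3 each), and the differences were not tested. In Hdac2 ECKO it was 1.72 in replicate 2, against 1.18 and 1.39 in replicates 1 and 3.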
